A study of Saccharomyces cerevisiae with 12 samples.

Results

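The cytosolic ribosomal protein genes of Saccharomyces cerevisiae were described across glucose-limited chemostat cultures of 2 engineered strains and their reference strain. A probe set counted where the array annotation gave it exactly 1 gene and that gene's symbol was RPL or RPS with a number and an optional A or B, or RPP0, RPP1A, RPP1B, RPP2A or RPP2B. This gave 105 probe sets for 80 genes, of 5656 genes on the array that had a probe set of their own. Each gene was represented by its probe set with the highest mean over the 12 arrays. The members comprised 33 genes of the small (40S) subunit, 42 of the large (60S) subunit and 5 of the stalk. RefSeq lists 137 such genes in this species. Of the others, 54 had only probe sets shared between copies, and the rest were not analysed here.

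The 4 groups had 3 cultures each. IMZ383 was grown without oxygen and lacked both acetyl-CoA synthetase genes: ACS2 was replaced by HIS3 and ACS1 by LEU2, each marker between loxP sites. It carried plasmid pUDE204 with URA3 and the Escherichia coli genes of pyruvate formate-lyase (pflB) and of the enzyme that activates it (pflA). IMZ305 was grown with air and lacked the same genes, with ACS2 replaced by natNT2 and ACS1 by AmdS. It also lacked the acetaldehyde dehydrogenase genes, with LEU2 in place of ALD2 and ALD3, HIS3 in place of ALD4, KanMX4 in place of ALD5 and hphNT1 in place of ALD6, and all its markers but AmdS lie between loxP sites. Its plasmid pUDE151 held URA3 and E. coli eutE, the gene of an acetylating acetaldehyde dehydrogenase. Both strains have the background of the auxotroph CEN.PK102-12A, which has the alleles ura3-52 and his3-Δ1 and a mutant leu2. The reference CEN.PK113-7D, with none of these alleles, was grown without oxygen and with air, and MATa, MAL2-8C and SUC2 were common to all. Every culture ran at 30 °C, pH 5.0 and a dilution rate of 0.1 per h. The anaerobic feed held 20 g/L glucose with 10 mg/L ergosterol and 420 mg/L Tween 80, and the aerobic feed held 7.5 g/L glucose, so that oxygen cannot be told apart from these additions and from the glucose supply. The labels do not say whether a strain was represented by more than 1 clone, or whether cultures of a group came from separate inocula. P-values therefore measure the spread between these cultures.

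A cytosolic ribosome decodes mRNA on its small subunit and joins amino acids on its large subunit, and the acidic stalk proteins of the large subunit recruit elongation factors. In budding yeast most ribosomal proteins are made from a pair of gene copies, named A and B, whose products are nearly or fully identical. The genes are among the most strongly transcribed in the cell. Their transcription, driven by Rap1, Fhl1, Ifh1 and Sfp1 and tuned by the TORC1 and protein kinase A pathways, follows growth rate, which a chemostat at steady state sets through its dilution rate.

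The deleted genes were checked first. ACS1 and ACS2 read at most 6.1 signal units on the arrays of both engineered strains and at least 94.3 on the reference arrays, and ALD2 to ALD6 read at most 1.7 in IMZ305. The ribosomal protein probe sets were bright: their signals lay between 198.6 and 7705.4, against at most 7.5 for 19 bacterial and mouse control probe sets that have no target in yeast. By mean signal, 76 of the 80 stood above the 90th percentile of the 9275 yeast probe sets. The authors' values had been scaled to a common level on all arrays, so a change that all transcripts shared would not be seen.

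Members varied less over the arrays than probe sets at large, but were not compared with probe sets of like brightness. All members stood at or above the 84.96th percentile of mean signal, and the part of brightness was not tested. Their highest array exceeded their lowest by a median of 1.65-fold, against 2.85-fold over all probe sets, and 24 members stayed under 1.5-fold (30% of members, against 4.87% of all probe sets), while 27 exceeded 2-fold and 4 exceeded 3-fold. RPL25, which encodes a 60S protein near the exit of the peptide tunnel, read between 1637.3 and 1886.7 on all 12 arrays, the narrowest range of all members. The widest range, 3.83-fold, was that of RPS26B. At the threshold of an adjusted p under 0.05 in limma, 59 members passed in none of the comparisons and 21 in at least 1.

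Single arrays stood apart. Aerobic reference 1 was the lowest of the 12 arrays for 24 of the 80 members (30%), against 10.1% of all probe sets. It also had the highest ratio of 3' to 5' signal for the actin control, 1.96, against 1.24 to 1.90 on the other 11 arrays. Among the members it read low for were RPL5, RPS15, RPP2A, RPS28B and RPS7A, and 23 members had an SD over 0.3 (log2) in the aerobic reference group, against 2 in IMZ305. Anaerobic reference 2 was the highest array for 28 of the 80 members, against 6.76% of all probe sets, with an actin ratio of 1.90. The part of RNA quality in the results below was not tested. Calls of members that end without aerobic reference 1 are marked below. The spike-in control BioB also varied, reading 7.9 to 12.0 on the IMZ305 arrays and on aerobic references 1 and 2, and 42.9 to 86.2 on the other arrays.

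**Figure D1:**
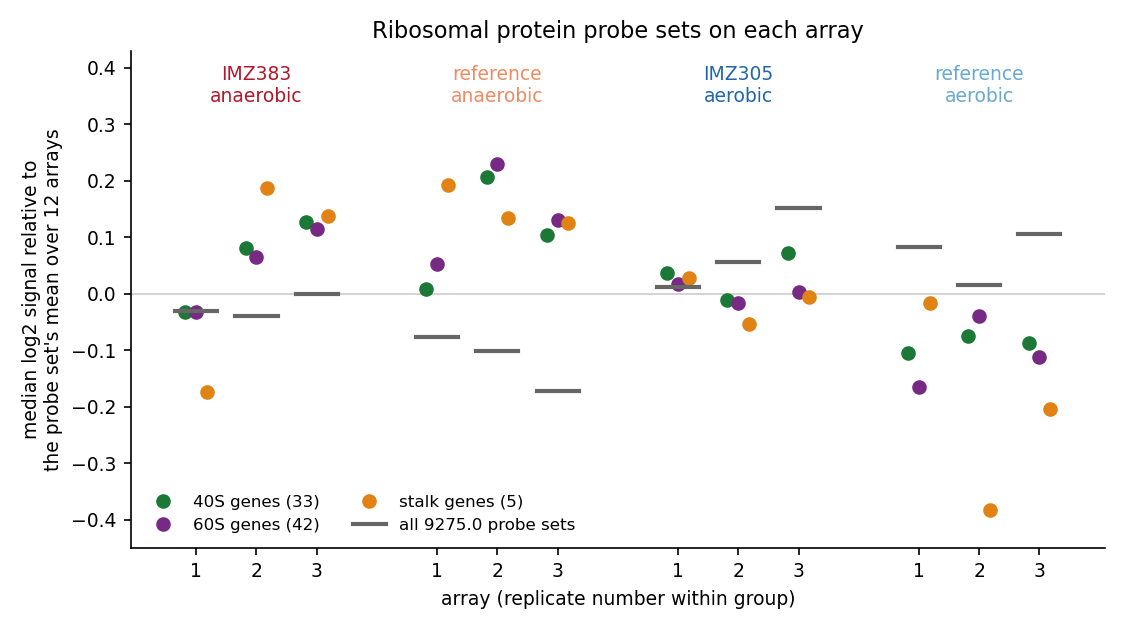
Median log2 signal of the 40S, 60S and stalk genes on each of the 12 arrays, relative to each probe set's mean over all arrays, with the median of all 9275 probe sets as a grey bar. The 40S and 60S medians of the 3 anaerobic reference arrays lie above 0 and those of the 3 aerobic reference arrays below 0, while the grey bars run the other way.

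The aerobic strain comparison asked how the transcriptome of IMZ305 differed from that of the reference grown with air. RPS26B was the 1 ribosomal protein gene that fell, and RPL16B, RPL7A, RPS28B and RPL13B rose. These 4 of 80 higher (5%) and 1 of 80 lower (1.25%) stand against 6.09% and 8.3% of all probe sets, so the share of members called was not above the background in either direction. The median log2 change was 0.13 over the members and 0.00 over all probe sets. Above 0 lay 53 of the 80 members, against 4652 of the 9275 probe sets. The groups did not overlap for 29 members with IMZ305 higher and for 3 with IMZ305 lower, where 15% and 16.6% of all probe sets did not overlap in these directions.

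RPS26B (YER131W, chromosome V) encodes one of the copies of Rps26, a 40S protein at the channel where mRNA leaves the ribosome. It read 230.6, 244.4 and 298.5 in IMZ305, against 679.2, 661.8 and 701.4 in the aerobic reference. All 3 IMZ305 arrays lay far below all reference arrays, and no other group reached as low. The mean was 258 ± 35.9 in IMZ305 and 681 ± 19.8 in the reference (SD, n = 3 each). The log2 change was -1.41 (SE 0.16), a 2.66-fold lower signal, at a limma adjusted p of 0.000718. RPS26B remained called in each of 22 alternative settings, the removal of each single array included.

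The other copy, RPS26A (YGL189C, chromosome VII), read 5448.8, 4820.3 and 6179.6 in IMZ305, against 5499.6, 5096.9 and 7705.4 in the aerobic reference. The groups overlapped, and its log2 change of -0.14 (SE 0.18) did not pass (adjusted p = 0.703). The log2 ratio of the RPS26A over the RPS26B signal was 4.56, 4.30 and 4.37 in IMZ305 and 3.02, 2.95 and 3.46 in the reference, with no overlap. This gave an exact two-sided permutation p of 0.1, which is the smallest that 3 arrays against 3 can give. The pair was the most different in this comparison and was picked for that, so this p adds no support to the values. TSR2, which encodes the chaperone that carries Rps26 to the ribosome, read 20.0, 21.5 and 18.9 in IMZ305, against 21.6, 29.4 and 29.5 in the reference. Its groups did not overlap, but the change of -0.40 was not called (adjusted p = 0.216).

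**Figure D2:**
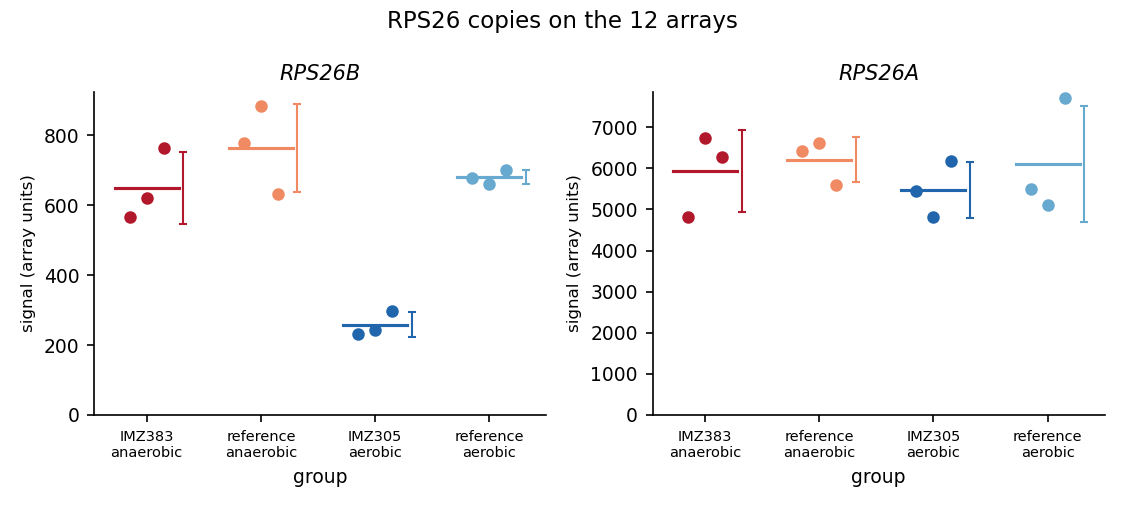
Signal of the RPS26B and RPS26A probe sets, in array units on a linear scale, on the 3 arrays of each group (points), with the group mean (bar) and SD (error bar). RPS26B in IMZ305 sits at 230.6 to 298.5, below every other array, while the RPS26A groups overlap.

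The 4 genes that rose encode proteins of both subunits. RPL16B (YNL069C), the gene of a protein on the surface of the large subunit, read 2323.0, 2297.8 and 2134.3 in IMZ305, against 907.1, 1717.9 and 1351.1 in the aerobic reference. All IMZ305 arrays were above all reference arrays, with reference 1 the lowest. The log2 change was 0.81 (SE 0.19, adjusted p = 0.0233), or 0.56 without reference 1, where RPL16B remained called. RPL7A (YGL076C), for a 60S protein, read 3061.8, 2654.8 and 2630.9, against 1178.5, 2215.4 and 1530.8. The groups did not overlap, and the change was 0.81 (SE 0.22, adjusted p = 0.0424). Without reference 1 it was 0.59 and was no longer called (adjusted p = 0.112). A second, dimmer probe set of RPL7A read 493.5, 456.2 and 259.8 in IMZ305, against 227.0, 387.4 and 303.5 in the reference. These groups overlapped and its change of 0.38 was not called (adjusted p = 0.448).

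RPS28B (YLR264W) encodes a 40S protein that in this yeast also limits the stability of its own mRNA. It read 2591.2, 2678.3 and 2777.2 in IMZ305, against 1122.6, 1890.6 and 1959.7 in the aerobic reference, and the groups did not overlap. The log2 change was 0.74 (SE 0.20, adjusted p = 0.0366), and 0.48 without reference 1 (adjusted p = 0.0348). A second probe set of RPS28B also rose, by 0.71. RPL13B (YMR142C), for a 60S protein, read 1832.1, 1884.9 and 1694.2 in IMZ305, against 1532.6, 1432.1 and 1416.3. Its small change of 0.30 (SE 0.08, adjusted p = 0.0345) was the narrowest in spread of the 4. The 4 rises rested on single arrays more than the fall of RPS26B did. Leaving out IMZ305 array 1 or array 2 left 0 members called higher, leaving out IMZ305 array 3, anaerobic reference 2 or 3 or IMZ383 array 1 left 2, and leaving out aerobic reference 2 gave 8. Of the 22 alternative settings, array removals included, RPL16B was called in 19, RPS28B in 14, and RPL13B and RPL7A in 9 each. RPL13B was not called after quantile normalization or median centring.

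By role, the median log2 change in IMZ305 was 0.24 over the 40S genes, 0.11 over the 60S genes and 0.19 over the 5 stalk genes. Several members with changes as large as those called did not pass. RPL9B, for a 60S protein at the base of the stalk, read 1212.8, 1222.5 and 1109.5 in IMZ305, against 425.5, 1091.2 and 600.7 in the reference (log2 change 0.85, SE 0.27, adjusted p = 0.0710). RPL5, whose product binds 5S rRNA, read 3127.0, 2989.6 and 2907.0, against 1178.3, 2538.1 and 1663.5 (0.82, SE 0.26, adjusted p = 0.0681). In both genes IMZ305 varied little, and aerobic reference 1 was the lowest array. Without it the changes were 0.54 for RPL9B and 0.55 for RPL5, still not called (adjusted p = 0.164 and 0.174).

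**Figure D3:**
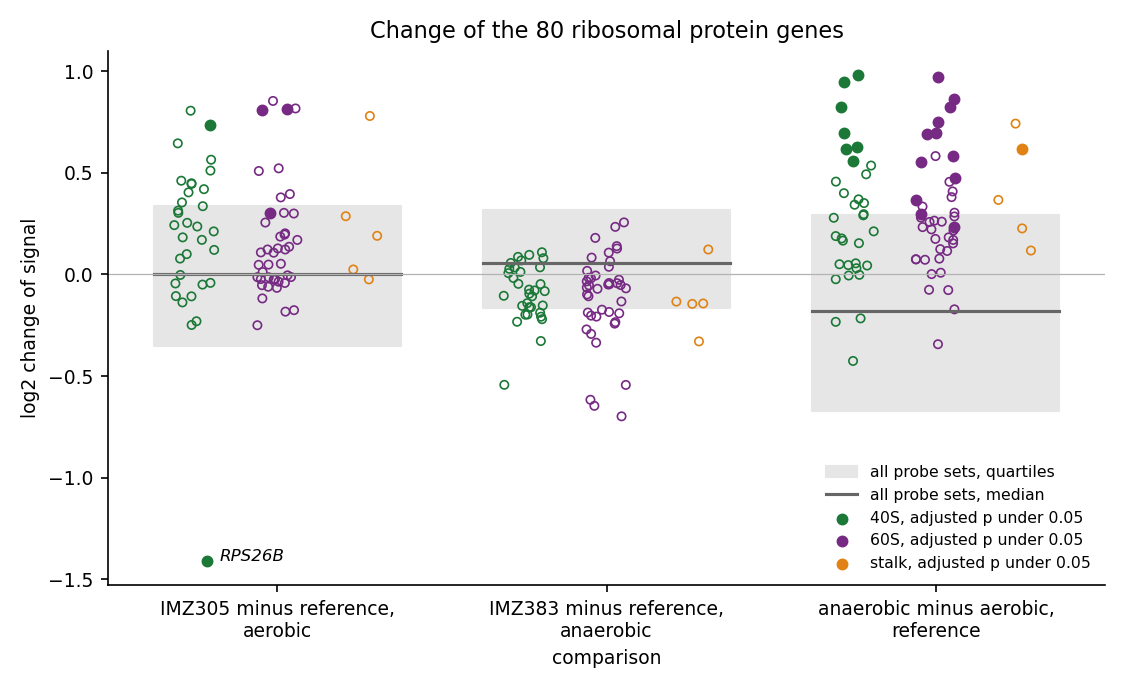
Log2 change of the 80 ribosomal protein genes in 3 comparisons, by subunit, with filled points for an adjusted p under 0.05; the grey band and line give the quartiles and median of all 9275 probe sets. In IMZ305 all members but RPS26B lie between -0.25 and 0.85, none is called in IMZ383, and 20 are called higher in the anaerobic reference.

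The anaerobic strain comparison set IMZ383 against the reference without oxygen. No ribosomal protein gene passed in either direction in limma, where 1.69% of all probe sets were called higher and 0.593% lower. At an unadjusted p under 0.05, 5 of the 80 members were lower and 0 higher, against 459 lower and 967 higher of all 9275 probe sets. The median log2 change was -0.08 over the members and 0.06 over all probe sets. Below 0 lay 58 of the 80 members, against 3800 of the 9275 probe sets. The count below 0 moved with the scaling: 39 members lay above 0 after quantile normalization and 6 after median centring. Without overlap between the groups were 2 members with IMZ383 higher and 8 with IMZ383 lower, against 13.4% and 6.98% of all probe sets.

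The 4 members with the lowest p all encode 60S proteins. RPL37B (YDR500C) read 2348.7, 1722.7 and 2521.4 in IMZ383, against 2979.4, 3456.3 and 3568.4 in the anaerobic reference (log2 change -0.62, SE 0.16, adjusted p = 0.100). RPL9A (YGL147C) read 268.8, 412.6 and 369.3, against 445.4, 663.9 and 530.9 (-0.65, SE 0.18, adjusted p = 0.121). In both genes every IMZ383 array lay below every reference array, but neither passed. RPL7A read 1676.4, 2264.5 and 2553.9 in IMZ383, against 3031.2, 3137.7 and 3154.7 (-0.54, adjusted p = 0.289). RPL31B (YLR406C), whose product lies at the exit of the peptide tunnel, read 2433.7, 1123.3 and 2982.6, against 3102.8, 3606.9 and 3108.3 (-0.70, adjusted p = 0.320). The other own probe sets of RPL31B gave -0.01 and -0.18. IMZ383 array 2 was the lowest of all 12 arrays for the set described, and for 10 of the 80 members (12.5%, against 10.9% of all probe sets).

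RPS26B was not called in this strain. It read 565.3, 619.2 and 764.7 in IMZ383, against 778.5, 882.7 and 631.7 in the anaerobic reference. The groups overlapped, and the log2 change was -0.23 (SE 0.16, adjusted p = 0.545).

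The difference between both strain effects was tested in the same model, as the IMZ383 effect minus the IMZ305 effect. Of the members, 1 was higher (1.25%, against 5.92% of all probe sets) and 3 were lower (3.75%, against 2.95%). RPS26B differed by 1.18 (SE 0.22, adjusted p = 0.0126), being lower in IMZ305 while its change in IMZ383 was not called. RPL37B differed by -1.14 (SE 0.23, adjusted p = 0.0170): its log2 change was -0.62 in IMZ383 and 0.52 in IMZ305, neither of which was called by itself. RPS26B and RPL37B remained called in all 21 alternative settings. RPL7A differed by -1.35 (SE 0.32, adjusted p = 0.0306) and RPL9A by -1.04 (SE 0.26, adjusted p = 0.0399), and these passed in 12 and 11 of the 21 settings. The second probe set of RPL7A gave a difference of -0.45 (adjusted p = 0.553) and was not called. Without aerobic reference 1, RPL9A was no longer called (adjusted p = 0.0699). The set shared by RPL9A and RPL9B gave a difference of -0.10 (adjusted p = 0.883). The 3 lower genes became 5 without aerobic reference 2, and 1 without IMZ305 array 1 or 2, anaerobic reference 2 or 3, or IMZ383 array 1. The median difference was -0.25 over the members and 0.08 over all probe sets.

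The oxygen comparison set the reference grown without oxygen against the reference grown with air. Here 20 members rose and 0 fell, while more probe sets of the whole array fell than rose. The 20 of 80 (25%) stand against 11% of all probe sets called higher, and the 0 of 80 against 23.3% called lower. At an unadjusted p under 0.05, 33 of the 80 members were higher and 1 lower, against 1336 higher and 2674 lower of all 9275 probe sets. The median log2 change was 0.26 over the members and -0.18 over all probe sets. Of the 80 members, 70 lay above 0, against 3772 of the 9275 probe sets. For 35 members all anaerobic arrays were above all aerobic arrays (43.8%, against 14.6% of all probe sets). For 1 member, RPS14B, all anaerobic arrays were below (1.25%, against 28.8%). In bulk RNA a larger share of ribosomal protein mRNA cannot be told apart from a smaller share of other transcripts.

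The size of this rise depended on the scaling. Under quantile normalization 5 members were called higher and 2 lower, at a median of 0.02 against 0.00 over all probe sets, and over the whole array 1308 were called higher and 1366 lower in place of 1018 and 2157. Under median centring 65 members were called higher and 0 lower, at a median of 0.66 against 0.22, with 2228 and 1067 called over the whole array. Relative to the median of all probe sets, the members stood 0.44 higher on the deposited scale and with median centring, and 0.02 higher after quantile normalization. Quantile normalization gives every array the same distribution of signals. Before it, the 95th percentile of all signals was 1079 to 1117 on the anaerobic and 927 to 944 on the aerobic reference arrays, and 66 of the members stood above the 95th percentile of mean signal. Without aerobic reference 1 the count was 14, with 12 of the 20 among them, and the median was 0.22. It was 12 without aerobic reference 3, 9 without anaerobic reference 2 and 8 without anaerobic reference 3.

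The 20 genes were spread over the subunits: 7 of 33 in the 40S, 12 of 42 in the 60S and 1 of 5 in the stalk, at medians of 0.28, 0.26 and 0.37 (0.03, 0.02 and 0.14 after quantile normalization). By the rule for naming genes, the 12 with the largest change among those whose groups did not overlap are described. Among the 40S genes, RPS15 (YOL040C), for a protein in the head of the subunit, read 2938.9, 2304.6 and 3080.1 in the anaerobic reference, against 906.4, 1808.9 and 1655.4 in the aerobic reference. All anaerobic arrays lay above all aerobic arrays, and the log2 change was 0.98 (SE 0.24, adjusted p = 0.0106), or 0.67 without aerobic reference 1. RPS28B read 3150.4, 3211.6 and 2930.8, against 1122.6, 1890.6 and 1959.7. The change was 0.94 (SE 0.20, adjusted p = 0.00492), and its second probe set rose by 0.80.

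RPS7B (YNL096C), for a 40S protein, read 995.5, 1131.4 and 1222.5 without oxygen, against 586.4, 795.9 and 693.7 with air (0.70, SE 0.12, adjusted p = 0.00183). RPS29B (YDL061C), for a zinc-binding protein of the 40S head, read 1505.1, 2107.4 and 1848.2, against 1115.9, 944.7 and 1003.3 (0.82, adjusted p = 0.0252). These groups did not overlap, and aerobic reference 1 was not the lowest array for RPS29B. RPS20 (YHL015W), for another head protein, read 1313.0, 1771.4 and 1624.1, against 1119.4, 941.3 and 976.9 (0.63, adjusted p = 0.0194). RPS1B (YML063W) read 831.1, 1229.3 and 1169.9, against 531.1, 768.0 and 814.9 (0.62, adjusted p = 0.0381). The lowest anaerobic array of RPS1B was barely above the highest aerobic one, and without aerobic reference 1 it was no longer called.

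Among the 60S genes, RPL37B read 2979.4, 3456.3 and 3568.4 without oxygen, against 1954.2, 1520.4 and 2052.6 with air. The groups were well apart, and the log2 change was 0.86 (SE 0.16, adjusted p = 0.00317), a 1.82-fold higher signal. RPL7A read 3031.2, 3137.7 and 3154.7, against 1178.5, 2215.4 and 1530.8 (0.97, SE 0.22, adjusted p = 0.00859), and its second probe set rose by 0.88. RPL16B read 2124.4, 2100.1 and 2244.7, against 907.1, 1717.9 and 1351.1 (0.75, adjusted p = 0.0145). The anaerobic arrays of both genes agreed closely with each other, and the aerobic arrays were widely spread.

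RPL3 (YOR063W), whose product lies by the peptidyl transferase centre, read 1352.6, 1318.1 and 1495.8 without oxygen, against 616.6, 927.3 and 1100.2 with air (0.69, adjusted p = 0.0198). RPL9A read 445.4, 663.9 and 530.9, against 338.6, 345.8 and 319.0 (0.69, adjusted p = 0.0175). RPP0 (YLR340W), the scaffold of the stalk, read 3239.3, 3633.5 and 3757.4, against 2375.8, 2098.1 and 2461.5 (0.62, adjusted p = 0.0278). In all 3 genes the groups did not overlap, and RPP0 was no longer called without aerobic reference 1 (adjusted p = 0.0575). The other 8 genes called were RPL13A, RPL13B, RPL27A, RPL28, RPL30, RPL36A, RPL5 and RPS0B, with log2 changes of 0.23 to 0.82. Of these, only RPL13B and RPL30 remained called without aerobic reference 1. RPL37B, RPL7A, RPS28B and RPS7B remained called in all 22 alternative settings.

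**Figure D4:**
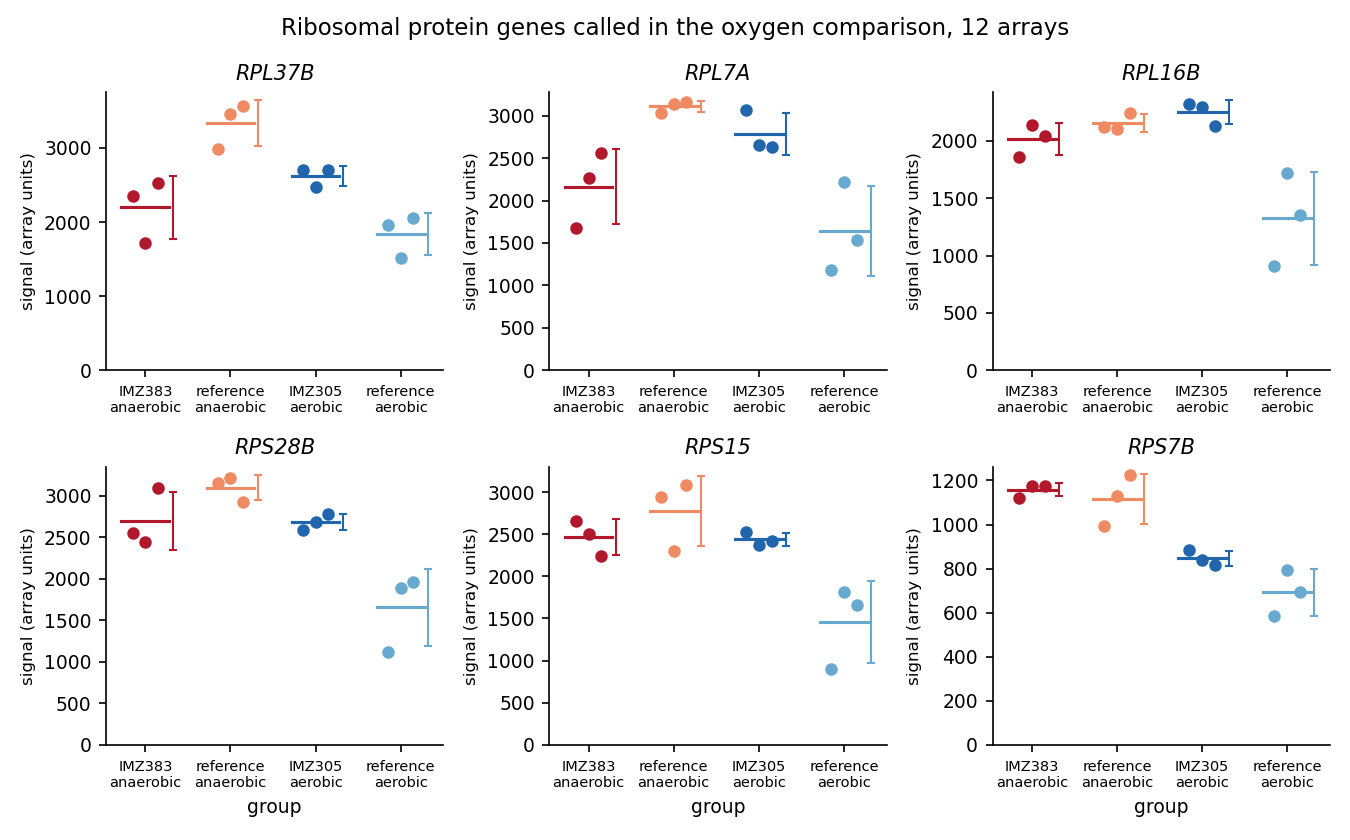
Signal, in array units on a linear scale, of 6 genes that rose in the oxygen comparison, on the 3 arrays of each group (points), with mean (bar) and SD (error bar). In each gene the anaerobic reference lies above the aerobic reference, whose SD is the widest of the 4 groups for RPL7A, RPL16B, RPS28B and RPS15.

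The aerobic reference is shared by the oxygen comparison and the aerobic strain comparison, so the same arrays enter both. Each of the 4 genes higher in IMZ305 was also among the 20. Side by side, the log2 changes without oxygen and in IMZ305 were 0.97 and 0.81 for RPL7A, 0.94 and 0.74 for RPS28B, 0.75 and 0.81 for RPL16B, and 0.23 and 0.30 for RPL13B. Because of the shared arrays, these values are not independent of each other.

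The copies of a pair were compared with each other. Both copies had probe sets of their own in 31 pairs. The ratio of the A to the B signal did not overlap between the groups in 10 pairs in the oxygen comparison, in 7 in the aerobic and in 4 in the anaerobic strain comparison. These are 32.3%, 22.6% and 12.9% of the pairs, where the signals of 43.4%, 31.6% and 20.4% of all probe sets did not overlap in either direction. The median size of the difference between the log2 changes of A and B was 0.31, 0.16 and 0.16. In the oxygen comparison the RPL7 pair differed most. The log2 ratio of RPL7A over RPL7B was 2.36, 1.55 and 1.37 without oxygen and 0.72, 1.09 and 0.34 with air, with log2 changes of 0.97 for RPL7A and -0.08 for RPL7B. The second probe sets of the pair gave 0.88 and -0.19. The RPS28 pair ran the other way, at -0.02 for RPS28A and 0.94 for RPS28B, and the RPS14 pair had 0.46 for RPS14A and -0.43 for RPS14B, whose gene is known to be repressed by its own protein product. In each of these 3 pairs the ratios did not overlap, and the exact two-sided permutation p was 0.1, the smallest this design allows. These pairs, and those named below, were picked by the size of the difference tested. Their p-values therefore add no support to the values.

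RPS14B itself read 953.9, 716.4 and 778.4 without oxygen, against 1090.3, 1128.5 and 1047.1 with air (log2 change -0.43, adjusted p = 0.0560), so it did not pass. In IMZ305 it read 1565.7, 1545.6 and 1232.6, against the same aerobic reference arrays (0.40, adjusted p = 0.115). The groups did not overlap in either comparison. In the aerobic strain comparison the pairs that differed most after RPS26 were RPL7, at 0.81 for RPL7A and -0.12 for RPL7B, and the stalk pair RPP2, at 0.78 for RPP2A and -0.02 for RPP2B (exact permutation p = 0.1 in both). For RPL7 this rested on the probe sets chosen, since the second sets gave 0.38 for RPL7A and 0.41 for RPL7B, and RPP2A was at 0.41 without aerobic reference 1. In the anaerobic strain comparison they were RPL15 (0.23 and -0.29, exact permutation p = 0.1), RPL31 (-0.17 and -0.70, exact permutation p = 0.2) and RPL7 (-0.54 and -0.05, exact permutation p = 0.2). The second sets of RPL7 gave -0.07 and -0.09, and the other sets of RPL31 gave -0.04 for RPL31A and -0.01 and -0.18 for RPL31B. Probes for 1 copy can also bind transcripts of the other, which would make the signals of a pair more alike, and the extent was not tested.

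**Figure D5:**
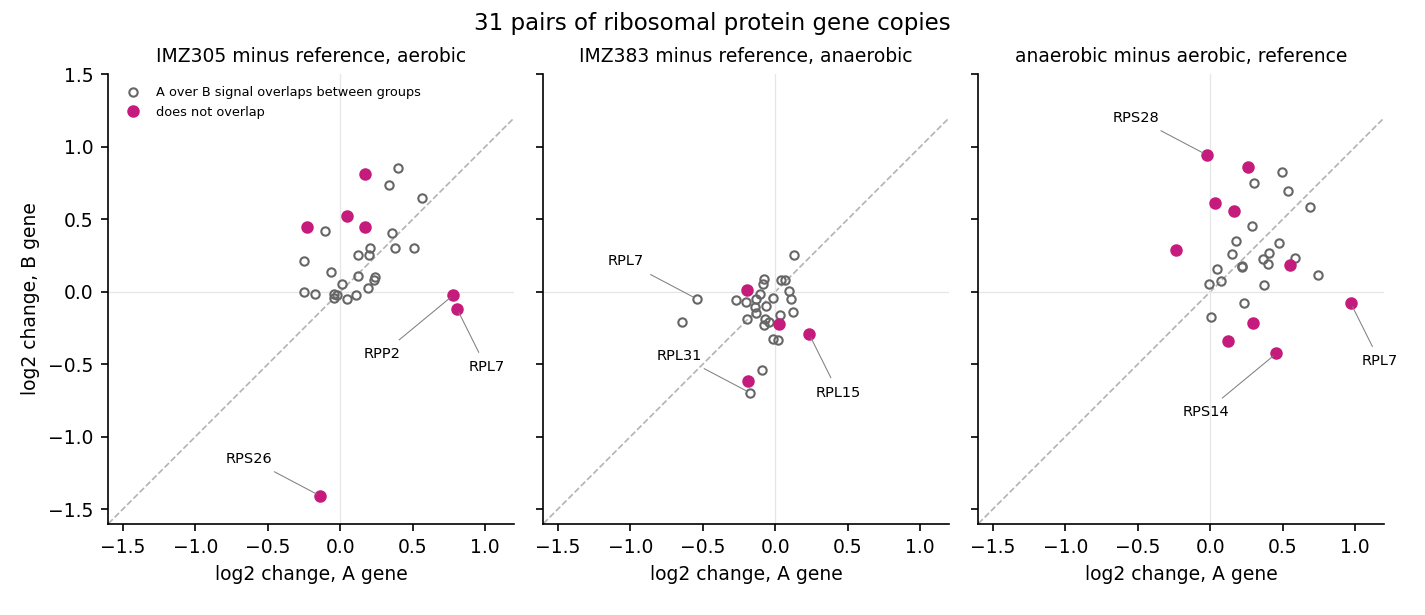
Log2 change of the A gene (horizontal) and the B gene (vertical) of 31 pairs in 3 comparisons, with filled points where the A over B signal ratio did not overlap between the groups and a dashed line where both copies change alike. RPS26 stands alone at -0.14 and -1.41 in the aerobic strain comparison, and RPL7, RPS28 and RPS14 lie farthest from the line in the oxygen comparison.

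Probe sets of 1 gene did not always tell the same story. Of the members, 20 had more than 1 own probe set that read above the highest non-target control on every array. The log2 changes of these sets spanned more than 0.5 for 3 genes in the aerobic strain comparison, 2 in the anaerobic one and 1 in the oxygen comparison. RPS22B, for a 40S protein, was the extreme. Its brightest set gave 0.45 in IMZ305 and -0.22 without oxygen, and neither was called. A second set read 1597.4, 1581.5 and 1268.2 in IMZ305, against 490.4, 615.4 and 516.9 in the aerobic reference, and rose by 1.45 (adjusted p = 0.00146). It also rose by 1.24 without oxygen, where 1 further set fell by 0.72. RPS22B is therefore left without a direction here.

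Probe sets shared by copies were counted apart, and there were 59 of these, naming 74 genes. Higher and lower calls numbered 1 and 2 in the aerobic strain comparison, 0 and 0 in the anaerobic one and 12 and 1 in the oxygen comparison, at medians of 0.12, -0.10 and 0.20. In the oxygen comparison these are 20.3% higher and 1.69% lower, against 11% and 23.3% of all probe sets, and in the aerobic one 1.69% and 3.39%, against 6.09% and 8.3%. In the oxygen comparison this became 1 and 2, at a median of -0.02, with quantile normalization, and 46 and 0 with median centring. A set shared by RPL15A and RPL15B read 1193.8, 1321.0 and 1552.2 in IMZ305, against 2272.0, 2443.8 and 2324.0 in the aerobic reference, and fell by 0.80 (adjusted p = 0.00158). The groups were far apart, but the own sets of RPL15A and RPL15B gave -0.25 and 0.00 and were not called. A set shared by RPS23A and RPS23B read 735.9, 780.6 and 967.3, against 1620.1, 1775.9 and 1400.1, and fell by 0.95 (adjusted p = 0.00539). Both other shared sets of that pair had positive changes, 0.59 and 0.36, and were not called. The set shared by RPS19A and RPS19B rose by 0.76 in IMZ305 (adjusted p = 0.0117) and by 0.75 without oxygen.

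The members lie on 15 chromosomes, and 6 pairs of them are next to each other in RefSeq. RPS15 and RPP2A (YOL040C and YOL039W, chromosome XV) are divergent neighbours that share an intergenic region. Their log2 changes were 0.81 and 0.78 in IMZ305, -0.16 and 0.12 in IMZ383, and 0.98 and 0.74 without oxygen. Without aerobic reference 1 these were 0.49 and 0.41 in IMZ305 and 0.67 and 0.38 in the oxygen comparison. RPP2A, one of the acidic stalk proteins, read 2372.7, 2337.3 and 2390.9 in IMZ305, against 829.5, 1932.2 and 1635.6 in the aerobic reference, and was not called (adjusted p = 0.0773). Without aerobic reference 1 it was called in IMZ305 (adjusted p = 0.0481) and in the oxygen comparison (adjusted p = 0.0307). Aerobic reference 1 was the lowest array for both neighbours. The other adjacent pairs included RPS14B and RPS22A, at -0.43 and 0.30 without oxygen, so adjacent genes did not always lie on the same side of 0.

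Genes around the ribosomal protein genes were described from 7 lists. Of 22 measured regulators of their transcription, 12 fell in the oxygen comparison and 0 rose (54.5%, against 23.3% of all probe sets called lower), at a median of -0.62. Quantile normalization gave 8 lower and 0 higher, and median centring 7 and 1. YAK1, a kinase that acts on the corepressor Crf1, read 94.9, 89.2 and 94.5 without oxygen, against 257.0, 285.3 and 346.1 with air (log2 change -1.66, adjusted p = 6.72e-06). TOR1, a kinase of the TORC1 complex, read 47.7, 43.2 and 52.8, against 116.2, 109.9 and 87.2 (-1.12, adjusted p = 0.000138). The histone acetyltransferase gene ESA1 also fell, by 1.10. CRF1 itself read 7.7, 1.6 and 3.9, against 226.8, 183.1 and 223.1. As 2 of its 3 anaerobic arrays lay under the highest non-target control, its signal was at least 31.9-fold lower without oxygen (adjusted p = 1.44e-05).

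In IMZ305, 5 of the 22 regulators fell and 0 rose (22.7%, against 8.3% of all probe sets called lower), and 3 fell with quantile normalization and 2 with median centring. CRF1 read 15.9, 17.5 and 20.5 in IMZ305, against 226.8, 183.1 and 223.1 in the aerobic reference. SCH9, the gene of a kinase that TORC1 activates, read 86.8, 74.9 and 67.5, against 143.0, 134.7 and 124.8 (-0.82, adjusted p = 0.0109). All IMZ305 arrays lay below all reference arrays in both genes, and YAK1 (-0.52) and TOR1 (-0.48) were lower as well. With either other scaling 1 regulator rose in IMZ383. On the deposited scale 2 rose and 0 fell there (9.09%, against 1.69% of all probe sets called higher). These were YAK1, at 144.1, 135.7 and 125.4 in IMZ383, against 94.9, 89.2 and 94.5 in the anaerobic reference (0.54, adjusted p = 0.0463), and EPL1, a subunit of the NuA4 acetyltransferase, at 37.2, 39.9 and 28.3, against 14.8, 12.8 and 9.3 (1.53, adjusted p = 0.0106). The difference between the strain effects was higher for 7 regulators (31.8%, against 5.92% of all probe sets) and lower for 0, with YAK1 (1.05) among them. With either other scaling it was higher for 4 and lower for 0.

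Ribosome assembly factors did not share one direction. Of 120 measured, 5 rose and 6 fell in IMZ305, 0 changed in IMZ383, and 9 rose and 13 fell without oxygen, at medians of -0.02, 0.11 and -0.11. These shares, 4.17% and 5% in IMZ305 and 7.5% and 10.8% without oxygen, lay below those of all probe sets (6.09% and 8.3%, 11% and 23.3%). The oxygen counts turned with the scaling, to 24 higher and 8 lower with quantile normalization and 33 and 2 with median centring. The helicase gene DBP6 read 264.0, 257.2 and 238.0 in IMZ305, against 198.7, 191.8 and 184.0 in the aerobic reference, and rose by 0.40. RSA4, needed for maturation of the large subunit, rose by 0.88 in IMZ305, and RRP14 and MRD1 fell by 1.98 and 0.59. Without oxygen NOP1, the rRNA methyltransferase known as fibrillarin, rose by 0.77, and DBP6, REH1 and NOG2 fell by 0.80, 0.87 and 0.69. Of 15 RNA polymerase I genes, 1 rose in IMZ305 (6.67%, against 6.09% of all probe sets), which was RPA14 (1.08). In the oxygen comparison 4 rose and 4 fell (26.7% each, against 11% and 23.3%), and 4 and 0 with either other scaling.

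Of 8 chaperones of single ribosomal proteins, SYO1 rose by 0.72 and FAP7 fell by 0.51 in IMZ305. That is 12.5% of the list in each direction, against 6.09% and 8.3% of all probe sets. YAR1, the chaperone of Rps3, rose by 0.56 in IMZ383, and YAR1, TSR4 and FAP7 fell by 0.76, 0.74 and 0.58 without oxygen. The shares were 12.5% higher in IMZ383, against 1.69% of all probe sets, and 37.5% lower without oxygen, against 23.3%. With quantile normalization 0 of these chaperones were called in IMZ383, and 1 was higher and 2 lower without oxygen. With median centring 0 were called in IMZ383, and 2 were higher and 0 lower without oxygen. That scaling left 1 higher and 0 lower in IMZ305. Of 34 measured translation factors, 1 rose and 1 fell in IMZ305, which were SUP35 (1.08) and HEF3 (-1.57), and 0 changed in IMZ383. The IMZ305 shares, 2.94% in each direction, lay below the 6.09% and 8.3% of all probe sets. Without oxygen 8 rose and 3 fell (23.5% and 8.82%, against 11% and 23.3% of all probe sets), and 17 and 1 with median centring. The hypoxic translation factor gene ANB1 read 3378.2, 3186.3 and 2958.2 in the anaerobic reference, against 19.2, 13.8 and 12.0 in the aerobic reference (216-fold higher). Of 8 ribosome-associated factors, ZUO1, a chaperone at the peptide exit, rose and BTT1 fell in IMZ305, by 0.78 on the log2 scale for ZUO1 and -0.80 for BTT1. That is again 12.5% in each direction, against 6.09% and 8.3% of all probe sets.

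The mitochondrial ribosome has proteins of its own, encoded by separate nuclear genes. Of 54 such genes measured, 2 rose and 11 fell without oxygen, at a median of -0.23, but these counts were 5 and 5 with quantile normalization and 7 and 2 with median centring. In IMZ305, 1 rose and 7 fell, at a median of -0.23 (2 and 4 with quantile normalization, 0 and 4 with median centring). In IMZ383 the 1 call was MRPL4, at 141.8, 158.5 and 121.7, against 260.1, 256.1 and 353.8 in the anaerobic reference, at a list median of -0.19. Lower calls made up 20.4% of the mitochondrial list without oxygen, near the 23.3% of all probe sets, and 13% in IMZ305, against 8.3%. The 1 lower call in IMZ383 was 1.85% of the list, against 0.593%. Higher calls made up 3.7% without oxygen, against 11%, and 1.85% in IMZ305, against 6.09%.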

How the data were processed

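Total RNA (200 ng per culture) of 12 cultures was labelled by a 3' in vitro transcription kit and hybridised to 1 array each, per the labels. The authors deposited 1 intensity per probe set and array, on a linear and not a log2 scale. Summary and scaling software is not given in the sources used here, but the mean without the outer 2% of probe sets on each side was 150.1 to 150.2 on every array. The file held 9335 probe sets; without 60 controls, 9275 were tested, of which the platform annotation pairs 6504 with 1 gene, 328 with several and 2443 with none. All members matched RefSeq by gene ID. Arrays carry no counts, and their number limits the precision.

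Intensities were floored at 1.1, the 10th percentile of all values, and fitted as log2 values in limma 3.58.1 (R 4.3.3), with 1 mean per group over all 12 arrays, moderated two-sided tests and Benjamini-Hochberg adjustment over 9275 probe sets. A call is an adjusted p under 0.05, and "rose", "fell", "higher" and "lower" counts refer to calls. The fit was checked on simulated data. The members, lists and tests were chosen with earlier results of these data known. Named are all called members up to 12 per comparison, otherwise the 12 with the largest change without overlap; up to 4 members by lowest p where fewer than 4 were called; the 3 most different pairs; and up to 4 called genes per list. RPL25, RPL5, RPL9B, RPP2A, RPS14B, RPS22B, TSR2 and the shared probe sets were chosen after their values were seen.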

Additional observations from a re-analysis of the deposited data

Results flagged for a closer look

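The effects of the 2 strains on 4 ribosomal protein genes differed by the test of the difference itself, given here as the IMZ383 effect minus the IMZ305 effect on the log2 scale. RPS26B differed by 1.18 (limma adjusted p = 0.0126), with a change of -0.23 in IMZ383 and -1.41 in IMZ305. RPL37B differed by -1.14 (adjusted p = 0.0170), with -0.62 in IMZ383 and 0.52 in IMZ305. RPL7A differed by -1.35 (adjusted p = 0.0306), with -0.54 and 0.81. RPL9A differed by -1.04 (adjusted p = 0.0399), with -0.65 and 0.40. RPS26B and RPL37B remained called in all 21 alternative settings, RPL7A in 12 and RPL9A in 11. The second probe set of RPL7A gave -0.45, and the set shared by RPL9A and RPL9B gave -0.10. Neither set was called. Strain and oxygen supply differ together here, so that the 2 cannot be told apart.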

How the results depend on the processing

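Calls of ribosomal protein genes in the anaerobic strain comparison stayed at 0 in both directions, and the 1 gene lower in the aerobic strain comparison stayed at 1, in every alternative run. Genes higher in the aerobic strain comparison, 4 as reported, numbered 2 without a floor, 7 with a filter on low mean signal, 1 in a fit to only the 2 groups, 8 with an intensity trend and robust prior, 2 on plain _at probe sets (an alternative chosen after seeing the data), and 0 to 8 when 1 array was left out. Genes higher in the oxygen comparison, 20 as reported, numbered 5 with quantile normalization, 65 with median centring, 10 with only the 2 groups, 13 on plain _at probe sets and 8 to 22 with 1 array left out. Genes lower there, 0 as reported, numbered 2 with quantile normalization, 1 with a floor 2 times as high, with 1 probe set per gene or with the trend and robust prior, and 0 to 1 with 1 array left out. Lower differences between strain effects, 3 as reported, numbered 5 with median centring, 6 with 1 probe set per gene, 7 with the trend and robust prior, 1 on plain _at probe sets and 1 to 5 with 1 array left out. Over all probe sets, median centring gave 87 higher and 73 lower calls in the anaerobic strain comparison in place of 157 and 55 (112 and 74 with quantile normalization), and 322 and 337 for the difference in place of 549 and 274.

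The median change moved to 0.021 in the oxygen comparison with quantile normalization, and with median centring to 0.66 there, -0.20 in the anaerobic strain comparison and -0.42 for the difference; the shift of the array medians accounts for the centred values by construction, and the cause of the others was not tested. No pairing of cultures by replicate number was seen: deviations of same-numbered arrays correlated at -0.03 to 0.05. Such values cannot show whether same-numbered cultures were run together. The replicate block gave 2 genes higher in the aerobic strain comparison and 1 lower in the oxygen comparison. Of 559 values of single named genes under the alternatives, 471 kept their direction and their status as called or not called. The other 88 kept their direction without the call. The named genes included those of the anaerobic strain comparison, which had no call to lose. They left out less stable calls of the oxygen comparison, such as RPL13B and RPL28, called there in 6 and 7 of 22 settings.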
